A study of Mus musculus with 36 samples.

Results

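The transcripts of 9 genes that make, clear or respond to adenosine and cyclic AMP (cAMP) were followed through all 12 groups of an RNA-seq study of N4bp1 knockout (KO) and wild-type (WT) mouse macrophages. The genes were chosen by name, with earlier results of these data known. Adora2a, Adora2b and Adora3 encode adenosine receptors. Entpd1 encodes an enzyme that acts on extracellular nucleotides, and Ada one that acts on adenosine. Pde4a, Pde4b and Pde4d encode phosphodiesterases that break down cAMP, and Crem encodes a cAMP-responsive transcription factor. All 9 were found among the 52636 genes in the deposited files, and all 9 passed the filter on low counts. The adenosine receptor transcripts differed between the genotypes in different ways: Adora2a was 3.17- to 4.26-fold higher in KO than in WT macrophages over the 6 conditions, Adora2b was higher by a margin that was wider at 7 h, and Adora3 was lower in KO at 3 h. Pde4b, by far the most abundant of the phosphodiesterase transcripts, did not differ significantly between the genotypes at 3 h and was 1.75-fold higher in KO at 7 h. Crem was lower in KO at 3 h and higher in KO at 7 h.

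The cells were bone marrow-derived macrophages, grown with M-CSF. KO denotes macrophages of N4bp1 KO mice, and WT those of wild-type mice. The protocol names C57BL/6N for the wild-type animals and gives no separate strain for the KO animals. Each genotype was exposed to R837 (imiquimod, an agonist of the RNA-sensing receptor TLR7) in 6 ways: 3 h of R837, 3 h of R837 followed by 0.5, 1, 2 or 4 h of actinomycin D (ActD, which blocks transcription), and 7 h of R837 without ActD. Each of the 12 groups held 3 libraries, 36 in all, and per the labels 3 individual mice gave the replicates. All groups had received R837; macrophages without it are not analysed here.

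Adenosine is formed outside cells when ectonucleotidases remove the phosphates of ATP and ADP. The receptors encoded by Adora2a and Adora2b couple to Gs and raise cAMP, which restrains inflammatory cytokine production by macrophages, whereas that encoded by Adora3 couples to Gi and lowers it. Cyclic AMP acts through protein kinase A on CREB, PDE4 enzymes end the signal, and the Crem locus gives both activators and the inducible repressor ICER, which counts over the whole gene do not separate.

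Libraries held 20.3 to 46.1 M counted reads (median 26.3 M). N4bp1 itself was reduced and not absent: it had 85.95, 84.95 and 81.29 CPM (counts per M counted reads, scaled by TMM) in KO at 3 h, against 125.4, 147.2 and 127.8 CPM in WT. After 4 h of ActD it was higher in the libraries labelled KO, with 94.16, 92.18 and 76.78 CPM against 63.29, 56.13 and 53.41 CPM in those labelled WT. The count covers the whole gene and the labels do not say which part was deleted, so this is no check of the genotype labels, and KO and WT stand for the labels throughout. The macrophage markers Adgre1 (1737 to 3381 CPM) and Csf1r (598.6 to 1205 CPM) were high in every library. Cd68, Lyz2, Fcgr1 and Cd14 had at least 612 CPM. Of the same list, Itgam had 118.0 to 253.0 CPM and Mertk only 4.48 to 13.08 CPM. Of the T and NK cell markers, Cd3e and Cd3g had a median of 0 CPM, while Lck had 2.08 to 8.33 CPM and Cd8a 0.565 to 14.85 CPM. Of the neutrophil markers, Ly6g reached at most 0.494 CPM, but S100a8 (149.8 to 563.4 CPM), S100a9 (219.5 to 500.0 CPM), Ngp (35.7 to 118.9 CPM) and Camp (16.4 to 47.4 CPM) were present in every library. Of the mast cell and basophil markers, Cpa3 reached at most 0.848 CPM and Kit 4.57 CPM.

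CPM values below are normalized by TMM and compare one gene between libraries. RPKM values, the authors' own, are used where levels of different genes are compared. Differences are log2 changes ± SE from edgeR's quasi-likelihood test, with n = 3 libraries per group, and "called" means a Benjamini-Hochberg adjusted p under 0.05 over all genes tested. In bulk RNA, more cells of a kind and more transcript per cell cannot be told apart.

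The first question was which of the 9 transcripts differed between KO and WT macrophages under the same exposure. After 3 h of R837, 2 of the 9 were higher in KO and 2 lower, where 15.2% of the 13748 genes tested were called higher and 12.6% lower. With 0.5 h of ActD, 2 were higher (13.7% of all genes) and 3 lower (12.7%). With 1 h, 2 were higher (7.51%) and 4 lower (9.92%), and with 2 h 2 were higher (14.7%) and 3 lower (15.4%). With 4 h of ActD, 3 were higher (17.7%) and 4 lower (17.9%). At 7 h of R837, 5 were higher (15.5%) and 1 lower (15.1%). The median change of the 9 was 0.70 at 7 h, against -0.01 for all genes tested. With so few genes the counts are given as a description.

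**Figure D1:**
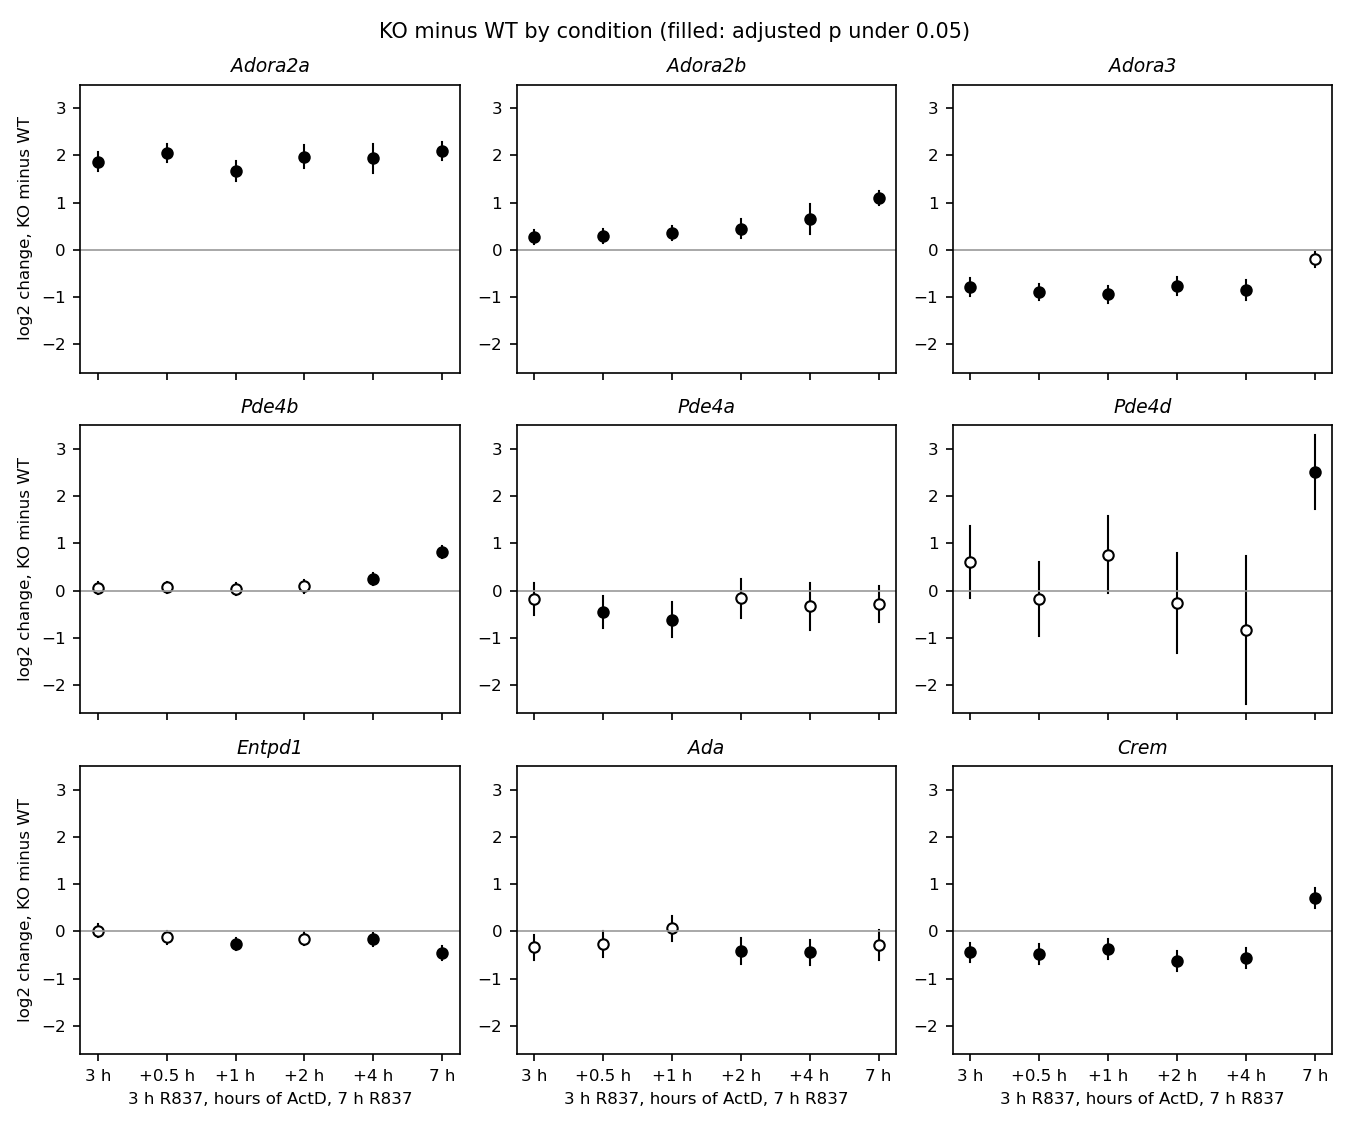
Log2 change of KO minus WT (vertical axis) in each of the 6 conditions (horizontal axis: 3 h of R837, the same followed by 0.5, 1, 2 or 4 h of ActD, and 7 h of R837), one panel per gene. Points are edgeR estimates from 3 libraries per group with 95% intervals, filled where called. Adora2a lies between 1.67 and 2.09 throughout, whereas Crem lies below 0 in the first 5 conditions and at 0.70 at 7 h.

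Among the receptors, Adora2a (ENSMUSG00000020178, GRCm38 chromosome 10, 75316877 to 75334784, plus strand) encodes the high-affinity Gs-coupled adenosine receptor. At 3 h it had 70.01, 68.03 and 63.56 CPM in KO macrophages, against 19.43, 18.64 and 17.17 CPM in WT macrophages. At 7 h it had 78.69, 73.12 and 71.77 CPM in KO, against 18.64, 17.81 and 15.99 CPM in WT. The KO and WT libraries did not overlap at either time, nor at any time of ActD. The log2 change at 7 h was 2.09 ± 0.10 (4.26-fold, edgeR adjusted p = 8.17e-20). It was 2.05 ± 0.10 with 0.5 h of ActD, 1.67 ± 0.11 with 1 h, 1.98 ± 0.12 with 2 h and 1.94 ± 0.16 with 4 h, each called. Between 3 h and 7 h neither genotype changed by a called amount (0.15 ± 0.09 in KO, edgeR adjusted p = 0.175, and -0.07 ± 0.11 in WT, edgeR adjusted p = 0.577). Fitted on the libraries of the groups compared alone, the KO change of 0.161 was called (edgeR adjusted p = 0.0366).

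Markers of other cell types also differed between the genotypes. The 6 fibroblast markers summed to 28.3 to 29.9 CPM in KO and 13.5 to 15.2 CPM in WT at 3 h, and the 6 B and plasma cell markers to 77.3 to 83.1 CPM in KO and 52.3 to 56.4 CPM in WT. The 8 neutrophil markers summed to 573 to 713 CPM in KO and 603 to 703 CPM in WT at 3 h, and to 859 to 895 CPM in KO and 568 to 588 CPM in WT at 7 h. The 6 dendritic cell markers summed to 34.9 to 35.6 CPM in KO and 18.2 to 19.5 CPM in WT at 7 h. The 6 mast cell and basophil markers summed to 4.87 to 5.23 CPM in KO and 2.65 to 3.18 CPM in WT at 7 h, and the 7 T and NK cell markers to 10.2 to 11.2 CPM in KO and 15.3 to 17.8 CPM in WT. Fibroblast sums at 7 h were 27.15 to 29.67 CPM in KO and 15.02 to 17.57 CPM in WT. B and plasma cell sums at 7 h were 49.96 to 51.99 CPM in KO and 36.15 to 42.39 CPM in WT. Dendritic cell sums at 3 h were 22.7 to 25.1 CPM in KO and 18.8 to 19.0 CPM in WT. Mast cell and basophil sums at 3 h were 4.87 to 6.86 CPM in KO and 3.74 to 4.68 CPM in WT. T and NK cell sums overlapped at 3 h (5.54 to 7.14 CPM in KO and 5.64 to 10.24 CPM in WT). Some sums rest largely on few genes. Over all libraries, Ccr7 reached 33.1 CPM, Siglech 5.38 CPM and each other dendritic cell marker at most 2.35 CPM. Cd8a reached 14.85 CPM, Lck 8.33 CPM and each other T and NK cell marker at most 0.497 CPM. Ighm reached 59.1 CPM and Jchain 17.4 CPM, against at most 6.79 CPM for each other B and plasma cell marker. Whether numbers of other cells differed was not tested, nor was the part of these markers in the changes of the 9 genes.

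Adora2b (ENSMUSG00000018500, chromosome 11, 62248984 to 62266453, plus strand) encodes the Gs-coupled receptor that binds adenosine with lower affinity. KO libraries had 153.8, 155.0 and 159.4 CPM at 3 h, against 136.7, 127.4 and 126.5 CPM in WT. At 7 h it had 265.6, 254.6 and 253.5 CPM in KO, against 119.4, 120.3 and 120.2 CPM in WT. KO libraries lay above all WT libraries at both times, narrowly at 3 h and by a factor of 2.15 at 7 h. The log2 change of KO minus WT was 0.26 ± 0.08 at 3 h (edgeR adjusted p = 0.00877) and 1.10 ± 0.08 at 7 h (edgeR adjusted p = 3.47e-15). It was called at every ActD time too, at 0.29 ± 0.08, 0.36 ± 0.08, 0.45 ± 0.11 and 0.65 ± 0.16 after 0.5, 1, 2 and 4 h. Scaled to stable reference genes, the change at 1 h of ActD was 0.22 and no longer called (edgeR adjusted p = 0.161).

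Adora3 (ENSMUSG00000000562, chromosome 3, 105870858 to 105908926, plus strand) encodes the Gi-coupled receptor and was the one receptor transcript that was lower in KO. It stood at 7.77, 8.57 and 6.87 CPM in KO at 3 h, against 12.43, 14.22 and 13.56 CPM in WT. The groups were apart, with a log2 change of -0.79 ± 0.09 (edgeR adjusted p = 3.02e-08). The difference was between -0.94 and -0.77 at the 4 times of ActD, called at each. At 7 h it had 20.45, 18.66 and 19.89 CPM in KO, against 23.17, 21.57 and 23.29 CPM in WT. The libraries still did not overlap at 7 h, yet the change of -0.20 ± 0.09 was not called (edgeR adjusted p = 0.064). It was called with DESeq2 (-0.22, DESeq2 adjusted p = 0.0365), with RLE size factors (edgeR adjusted p = 0.0422) and when fitted on the 2 groups alone (edgeR adjusted p = 0.00878). Of the Adora3 exon bases 20.89% are shared with Tmigd3 on the same strand, a gene with a median of 3 counts against 315.5 for Adora3, so reads from the 2 genes may not be fully separated.

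**Figure D2:**
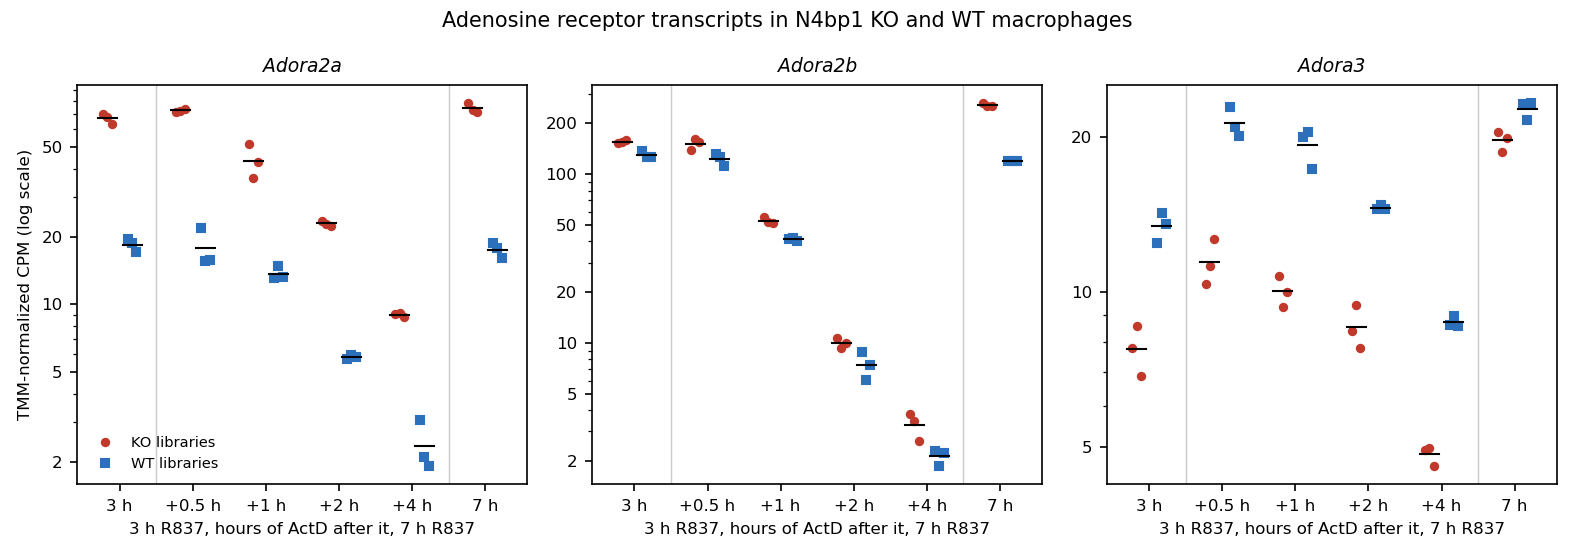
TMM-normalized CPM (vertical axis, log scale) of the 3 adenosine receptor transcripts in every library, by condition (horizontal axis), with KO as circles to the left and WT as squares to the right, and black bars for the means of 3. Adora2a stands apart between the genotypes in all 6 conditions, Adora2b separates most at 7 h (mean 257.9 CPM in KO and 120.0 CPM in WT), and Adora3 is higher at 0.5 h of ActD than at 3 h of R837 in both.

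The mix of receptor transcripts per length therefore differed. Adora2b made up most of the summed RPKM of the 3 receptors at 3 h, with a median of 73.9% in KO and 85.1% in WT. Adora2a made up 23.1% in KO and 8.66% in WT, and Adora3 2.71% in KO and 6.67% in WT. The KO shares ran from 21.6 to 23.8% and the WT shares from 8.21 to 8.77% for Adora2a, without overlap. At 7 h the Adora2a share was 16.2% in KO and 8.51% in WT. After 4 h of ActD, Adora2a was the largest part in KO (47.9%) and Adora3 the largest in WT (63.5%).

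Among the phosphodiesterases, Pde4b (ENSMUSG00000028525, chromosome 4, 102087543 to 102607259, plus strand) encodes the PDE4 enzyme that is induced in macrophages by Toll-like receptor signals. At 3 h it had 623.5, 642.5 and 631.7 CPM in KO, against 597.8, 608.7 and 624.5 CPM in WT. These libraries overlapped, and the change of 0.05 ± 0.06 was not called (95% interval -0.07 to 0.18, edgeR adjusted p = 0.585). With stable-reference scaling, which took the median of all genes to 0.21, the change at 3 h was 0.26 and was called (edgeR adjusted p = 0.0383). At 7 h Pde4b had 654.5, 668.9 and 658.0 CPM in KO, against 380.8, 368.6 and 379.7 CPM in WT, with no overlap (log2 0.81 ± 0.06, edgeR adjusted p = 1.8e-13). Under ActD the change was called after 4 h (0.25 ± 0.07, edgeR adjusted p = 0.00419) and not at the earlier times. With the trend with gene length removed, it was called after 1 h (0.21, edgeR adjusted p = 0.0362) and not after 4 h (0.06, edgeR adjusted p = 0.565).

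Pde4a (ENSMUSG00000032177, chromosome 9, 21165714 to 21213248, plus strand), another PDE4 gene, was far lower, at 3.87, 3.30 and 2.88 CPM in KO and 3.32, 4.09 and 4.06 CPM in WT at 3 h. The groups overlapped and the change was not called (-0.18 ± 0.18, edgeR adjusted p = 0.473). It was called lower in KO after 0.5 h of ActD (-0.46 ± 0.17, edgeR adjusted p = 0.046) and 1 h (-0.62 ± 0.19, edgeR adjusted p = 0.0171). Both calls depended on single libraries: without replicate 1 of WT at 0.5 h the change was -0.25 (edgeR adjusted p = 0.294), and without replicate 2 of WT at 1 h it was -0.435 (edgeR adjusted p = 0.181). The first call also ended without any one of the KO libraries at 0.5 h or replicate 2 of WT (edgeR adjusted p from 0.0515 to 0.135), and the second without replicate 2 of KO at 1 h (edgeR adjusted p = 0.0587). The call at 0.5 h was also lost with DESeq2 (DESeq2 adjusted p = 0.0551), RLE size factors, no filter, the compared groups alone and stable-reference scaling (edgeR adjusted p = 0.05, 0.065, 0.125 and 0.253).

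Pde4d (ENSMUSG00000021699, chromosome 13, 108449948 to 109953461, plus strand) was near the limit of detection, with 1 to 30 counts in a library. At 7 h it had 1.05, 0.967 and 0.959 CPM in KO (30, 23 and 24 counts), against 0.194, 0.180 and 0.136 CPM in WT (6, 6 and 4 counts). The groups did not overlap and the change was called (2.51 ± 0.40, 95% interval 1.73 to 3.28, edgeR adjusted p = 2.73e-06). In the other 5 conditions its intervals all held 0. The 3 PDE4 transcripts thus differed widely in level: the ratio of Pde4b to Pde4a in RPKM had a median of 133 in KO and 105 in WT at 3 h, and of 178 in KO and 94.0 in WT at 7 h.

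**Figure D3:**
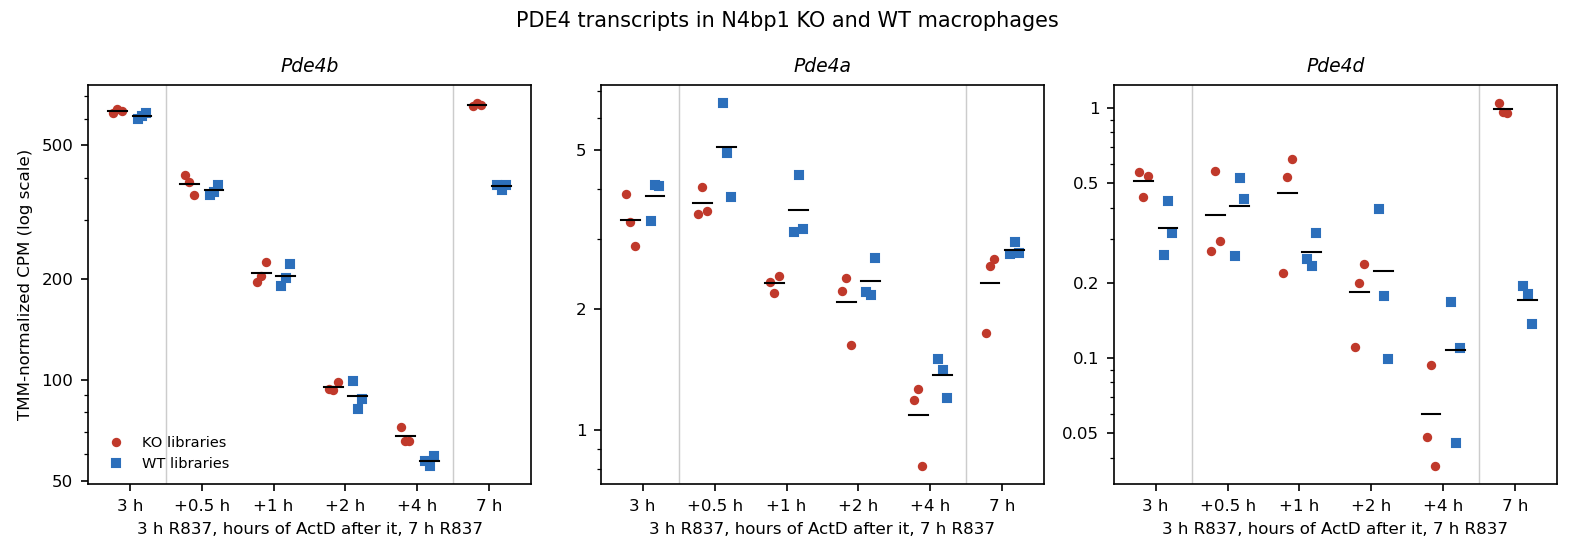
TMM-normalized CPM (vertical axis, log scale) of the 3 PDE4 transcripts in every library, by condition (horizontal axis), with KO as circles to the left and WT as squares to the right, and black bars for the means of 3. Pde4b overlaps between the genotypes at 3 h and is apart at 7 h (means 660.5 CPM in KO and 376.4 CPM in WT). Pde4d is below 1.1 CPM in every library.

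Adora2b and Pde4b had the most similar course of any pair of the 9, with a Pearson correlation of 0.977 over the 12 group means of log2 CPM, all from the same 36 libraries. The sequences before their annotated starts are shown because both were higher in KO at 7 h and both fell steeply under ActD. They are the 250 bases upstream of each RefSeq start on GRCm38.p6, plus strand, in lower case, with matches to the core of the cAMP response element (CRE core, letters TGACG, either strand) or to the kappaB consensus in capitals. Adora2b has 1 window (chr11:62248734-62248983), and Pde4b has 4, for starts far apart (chr4:102421305-102421554, chr4:102569810-102570059, chr4:102587308-102587557 and chr4:102589593-102589842). Counts over the gene do not show which Pde4b start was used.
Adora2b: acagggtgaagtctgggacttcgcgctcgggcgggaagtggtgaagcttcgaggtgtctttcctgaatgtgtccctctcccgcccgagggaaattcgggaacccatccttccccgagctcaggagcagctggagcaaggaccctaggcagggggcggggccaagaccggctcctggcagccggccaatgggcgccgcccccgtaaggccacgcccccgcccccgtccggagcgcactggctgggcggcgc
Pde4b window 1: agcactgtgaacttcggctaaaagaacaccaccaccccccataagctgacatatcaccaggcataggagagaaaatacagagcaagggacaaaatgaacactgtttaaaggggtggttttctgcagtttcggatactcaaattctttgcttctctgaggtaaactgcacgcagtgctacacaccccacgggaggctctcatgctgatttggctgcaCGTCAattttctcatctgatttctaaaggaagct
Pde4b window 2: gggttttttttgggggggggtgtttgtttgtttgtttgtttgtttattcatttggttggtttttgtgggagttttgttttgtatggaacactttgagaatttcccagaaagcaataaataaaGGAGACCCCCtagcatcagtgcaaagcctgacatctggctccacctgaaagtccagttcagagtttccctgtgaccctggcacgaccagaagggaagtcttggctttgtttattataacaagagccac
Pde4b window 3: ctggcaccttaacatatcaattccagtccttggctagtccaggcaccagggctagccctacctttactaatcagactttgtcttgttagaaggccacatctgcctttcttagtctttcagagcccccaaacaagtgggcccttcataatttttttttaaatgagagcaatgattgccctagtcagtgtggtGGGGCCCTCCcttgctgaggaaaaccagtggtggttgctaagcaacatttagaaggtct
Pde4b window 4: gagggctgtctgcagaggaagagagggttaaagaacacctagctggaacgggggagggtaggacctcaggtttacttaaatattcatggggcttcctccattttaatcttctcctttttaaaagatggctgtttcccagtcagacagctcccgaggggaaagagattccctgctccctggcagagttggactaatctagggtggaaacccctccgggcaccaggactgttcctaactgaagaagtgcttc

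The Adora2b window and Pde4b window 4 held no match to the motifs searched, which were the full CRE (TGACGTCA), its variant TGACGCAA, the CRE core, the AP-1 site (TGANTCA) and the kappaB consensus, on both strands. Pde4b window 1 held a CRE core that begins 34 bases before the start. Windows 2 and 3 each held a kappaB match, 128 and 59 bases before it. Of the 32851 RefSeq windows of this length, 17.8% held the CRE core, 7.25% the kappaB consensus, 6.75% the AP-1 site, 1.55% the full CRE and 0.44% the variant; each full CRE also holds the core. Of the 9 genes, 7 had windows, 13 in all. Adora2a, which was also higher in KO at 7 h and also fell under ActD, had none, and neither had Crem. In the windows of other members, CRE cores lay 135 and 183 bases before the 2 Entpd1 starts and 50 bases before a Pde4a start. A kappaB match lay 137 bases before the Ada start, and an AP-1 match lay 98 bases before the Adora3 start. These are matches of letters and do not show binding.

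Of the enzymes, Entpd1 (ENSMUSG00000048120, chromosome 19, 40612366 to 40741602, plus strand) encodes CD39, which removes phosphates from extracellular ATP and ADP. After 3 h of R837 it had 74.91, 74.95 and 66.52 CPM in KO, against 75.34, 73.38 and 65.82 CPM in WT. The genotypes overlapped there, and the change was 0.01 ± 0.07 (95% interval -0.12 to 0.15). At 7 h it had 18.56, 16.52 and 16.61 CPM in KO, against 25.66, 22.92 and 22.85 CPM in WT, without overlap (log2 -0.47 ± 0.08, edgeR adjusted p = 4.7e-06). It was also called lower in KO after 1 h of ActD (-0.27 ± 0.07, edgeR adjusted p = 0.00447). The call after 4 h (-0.17 ± 0.07, edgeR adjusted p = 0.0474) turned to 0.107 under stable-reference scaling (edgeR adjusted p = 0.47). It ended when any one of the 3 KO libraries or replicate 1 or 2 of WT was left out (edgeR adjusted p from 0.0583 to 0.236), with no filter (-0.138, edgeR adjusted p = 0.307) and in a fit of the compared groups alone (-0.157, edgeR adjusted p = 0.201). With the length trend removed, Entpd1 was also called lower in KO after 0.5 h (-0.152, edgeR adjusted p = 0.0455) and 2 h (-0.205, edgeR adjusted p = 0.00584). DESeq2 also called the 2 h change (-0.158), with a DESeq2 adjusted p that lies under the threshold and rounds to 0.05.

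Ada (ENSMUSG00000017697, chromosome 2, 163726584 to 163750239, minus strand) encodes adenosine deaminase, which converts adenosine to inosine. The 3 h libraries had 5.63, 7.47 and 7.45 CPM in KO, against 9.035, 7.765 and 8.999 CPM in WT. KO libraries lay below WT libraries, but the change of -0.34 ± 0.14 was not called (edgeR adjusted p = 0.0597). It was called without replicate 3 of KO (-0.40, edgeR adjusted p = 0.0407) or without replicate 2 of WT (-0.41, edgeR adjusted p = 0.0411). At 7 h the change was -0.28 ± 0.16 (edgeR adjusted p = 0.199). It was called lower in KO after 2 h (-0.415 ± 0.14, edgeR adjusted p = 0.0199) and 4 h of ActD (-0.44 ± 0.14, edgeR adjusted p = 0.00985). Replicate 3 of WT, at 13.3 CPM, decided the 4 h call, with -0.27 without it (edgeR adjusted p = 0.182). The 2 h call ended without replicate 2 of WT (-0.33, edgeR adjusted p = 0.127) or without replicate 2 or 3 of KO (edgeR adjusted p = 0.0528 and 0.0515), and stable-reference scaling ended both (-0.255 and -0.134, edgeR adjusted p = 0.158 and 0.439).

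Crem (ENSMUSG00000063889, chromosome 18, 3266048 to 3337748, minus strand) changed sides between the times. At 3 h it had 12.78, 11.17 and 14.52 CPM in KO, against 17.44, 16.41 and 18.47 CPM in WT. At 7 h it had 16.53, 18.62 and 18.17 CPM in KO, against 11.49, 11.21 and 10.03 CPM in WT. KO libraries lay wholly below WT at 3 h and wholly above at 7 h. The change was -0.45 ± 0.11 at 3 h (edgeR adjusted p = 0.00161) and 0.70 ± 0.11 at 7 h (edgeR adjusted p = 1.42e-06). It was lower in KO at the 4 ActD times as well, between -0.64 and -0.37. The call at 3 h was lost under stable-reference scaling (-0.24, edgeR adjusted p = 0.0635). The call at 1 h of ActD was lost with the length trend removed (-0.27, edgeR adjusted p = 0.125) and without replicate 1 of KO (-0.27, edgeR adjusted p = 0.119). A transcript on the other strand, Gm6225, shares 8.01% of the Crem exon bases and had a median of 0 counts.

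**Figure D4:**
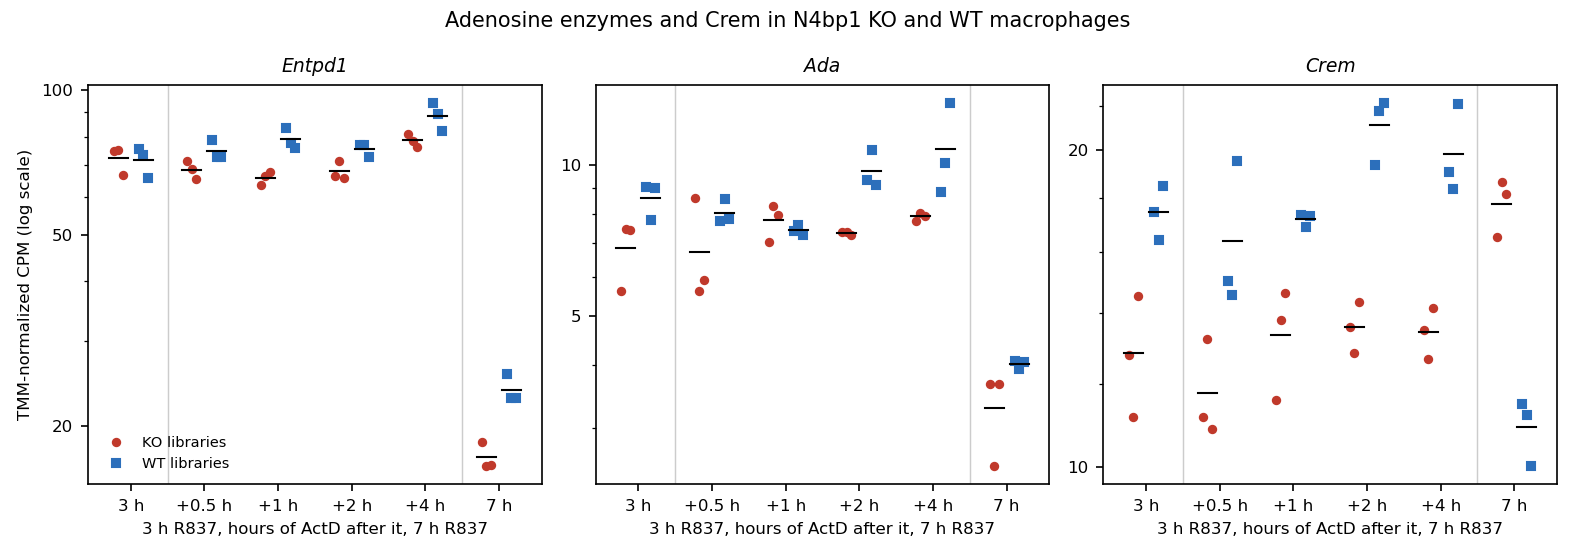
TMM-normalized CPM (vertical axis, log scale) of Entpd1, Ada and Crem in every library, by condition (horizontal axis), with KO as circles to the left and WT as squares to the right, and black bars for the means of 3. Entpd1 and Ada lie far lower at 7 h than at the other times (Entpd1 means 17.2 CPM in KO and 23.8 CPM in WT at 7 h), and Crem in KO is below WT until 4 h of ActD and above it at 7 h.

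Set side by side per length, the order of the 9 transcripts was much the same in both genotypes. At 3 h in KO, Adora2b (81.6 ± 0.66 RPKM) stood above Pde4b (74.8 ± 1.1), then Adora2a (25.0 ± 1.5) and Entpd1 (16.02 ± 1.24), each without overlap with the next. Ada (3.91 ± 0.57), Adora3 (2.96 ± 0.34) and Crem (2.49 ± 0.31) followed, with overlap between neighbours, and Pde4a (0.580 ± 0.093) and Pde4d (0.0742 ± 0.0093) were last (SD, n = 3). At 3 h in WT, Pde4b (73.4 ± 1.6) and Adora2b (69.2 ± 3.0) overlapped, Entpd1 (16.1 ± 1.1) came before Adora2a (6.96 ± 0.44), and Adora3 (5.21 ± 0.36) and Ada (4.99 ± 0.41) overlapped. At 7 h Adora2b stood first in both, at 122.3 ± 3.0 RPKM in KO and 60.8 ± 0.38 RPKM in WT, and Adora3 had passed Entpd1 in both. Every neighbour was then apart from the next in both genotypes.

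The next question was how the transcripts moved between 3 h and 7 h of R837. In KO, 4 of the 9 were higher at 7 h (28.7% of all genes) and 3 lower (31.7%). In WT, 1 was higher (27.3%) and 5 lower (30.7%). With so few genes these counts are not read as particular to them. The genotype difference itself was called with a more positive change in KO for 5 of the 9 (5.45% of all genes) and with a more negative one for 1 (6.84%). Adora2b rose in KO (0.73 ± 0.08, edgeR adjusted p = 6.88e-11) and was not called in WT (-0.12 ± 0.08, edgeR adjusted p = 0.185). The difference between these changes was 0.84 ± 0.11 (edgeR adjusted p = 1.46e-07).

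Pde4b was not called in KO (0.06 ± 0.06, edgeR adjusted p = 0.413) and fell in WT (-0.70 ± 0.06, edgeR adjusted p = 2.59e-12), a difference of 0.76 ± 0.09 (edgeR adjusted p = 3.15e-08). With the length trend removed, the KO change was 0.19 and called (edgeR adjusted p = 0.0187). Crem rose in KO (0.47 ± 0.11) and fell in WT (-0.68 ± 0.11), a difference of 1.15 ± 0.15 (edgeR adjusted p = 2.92e-07). Adora3 rose in both, by 1.34 ± 0.09 in KO and 0.76 ± 0.09 in WT. The Adora3 difference of 0.59 ± 0.13 (edgeR adjusted p = 0.000924) was 0.38 and not called with stable-reference scaling (edgeR adjusted p = 0.117).

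Entpd1 fell in both genotypes, by 2.06 ± 0.07 in KO and 1.59 ± 0.07 in WT on the log2 scale, and by more in KO (difference -0.48 ± 0.10, edgeR adjusted p = 0.000756). Ada also fell in both, by 1.04 ± 0.15 in KO and 1.10 ± 0.14 in WT, with a difference of 0.06 ± 0.21 (95% interval -0.36 to 0.47). Pde4a fell by 0.54 ± 0.19 in KO and 0.44 ± 0.18 in WT (edgeR adjusted p = 0.0132 and 0.0325). The Pde4a call in KO ended without replicate 1 of KO at 7 h (-0.36, edgeR adjusted p = 0.133) or replicate 1 of KO at 3 h (-0.42, edgeR adjusted p = 0.0951). That in WT ended without replicate 1 or 3 of WT at 7 h or replicate 2 or 3 of WT at 3 h (edgeR adjusted p from 0.0746 to 0.0982), and under RLE, stable-reference scaling, no filter and DESeq2. Pde4d rose in KO (0.95 ± 0.34, edgeR adjusted p = 0.0142) and was not called in WT (-0.94 ± 0.46, edgeR adjusted p = 0.0774). The Pde4d rise was not called without replicate 2 of KO at 3 h (edgeR adjusted p = 0.0572) or with no filter (0.96, edgeR adjusted p = 0.0634).

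ActD was then used to ask how much of each transcript was left once transcription was blocked. A straight line in hours of ActD was fitted to log2 expression in each genotype, on 30 libraries and 13537 genes. All values are relative to the average transcript, since no spike-in was used here. In KO the slope was called positive for 1 of the 9 (32.3% of all genes) and negative for 6 (35.8%). In WT it was positive for 3 (35.5%) and negative for 6 (34.8%). Adora2b fell fastest, with a slope of -1.56 ± 0.12 log2 units per hour in KO and -1.72 ± 0.13 in WT. After 4 h, 2.11% of its 3 h level was left in KO and 1.64% in WT.

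Adora2a had slopes of -0.785 ± 0.04 in KO and -0.786 ± 0.05 in WT, and Pde4b of -0.78 ± 0.08 and -0.82 ± 0.08. After 4 h, 13.4% of Adora2a was left in KO and 12.8% in WT, and 10.7% of Pde4b in KO and 9.38% in WT. The line hides when the fall took place. After 0.5 h of ActD, Pde4b was already lower (-0.72 ± 0.06 in KO and -0.74 ± 0.06 in WT), whereas Adora2b was not called (-0.04 ± 0.08 and -0.07 ± 0.08). After 1 h both were about equally reduced, Pde4b at -1.60 ± 0.07 in KO and -1.58 ± 0.07 in WT, and Adora2b at -1.56 ± 0.08 and -1.65 ± 0.08. By 2 h Adora2b had 10.8, 9.40 and 9.96 CPM in KO and 8.80, 6.08 and 7.45 CPM in WT, a change of -3.96 ± 0.09 in KO and -4.14 ± 0.10 in WT.

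Pde4a had slopes of -0.42 ± 0.06 in KO and -0.43 ± 0.06 in WT, and 32.59% and 35.97% of it was left after 4 h. Adora3 first went the other way. After 0.5 h of ActD it had 10.37, 11.22 and 12.65 CPM in KO and 22.89, 20.87 and 20.08 CPM in WT, above every library of 3 h of R837 without ActD of the same genotype. The change was 0.56 ± 0.10 in KO (edgeR adjusted p = 6.92e-05) and 0.66 ± 0.09 in WT (edgeR adjusted p = 6.38e-07). Adora3 was the one member of the 9 that was higher at that time, and Pde4b the one that was lower, where 3.1% of all genes were called higher and 4.34% lower in KO, and 3.7% higher and 3.51% lower in WT. It was still higher after 1 h (0.375 ± 0.10 and 0.53 ± 0.09) and lower after 4 h (-0.68 ± 0.10 and -0.615 ± 0.10). These comparisons at single times were run with TMM alone.

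Entpd1, Ada and Crem stayed near their 3 h level under ActD. After 4 h, Entpd1 was at 109% of it in KO and 124% in WT, Ada at 116% and 125%, and Crem at 105% and 114%. Slopes were 0.05 ± 0.02 in KO and 0.09 ± 0.02 in WT for Entpd1, 0.06 ± 0.03 and 0.13 ± 0.03 for Ada, and 0.04 ± 0.03 and 0.09 ± 0.03 for Crem. The signs depended on scaling: with stable-reference scaling, which took the median slope of all genes to -0.14 in KO and -0.185 in WT, all 6 were negative, between -0.104 and -0.069. Without replicate 3 of WT at 4 h the Ada and Crem slopes in WT were not called (0.07 each, edgeR adjusted p = 0.0764 and 0.0815). Without replicate 1 of KO at 4 h the Entpd1 slope in KO was not called (edgeR adjusted p = 0.0624). The Crem slope in WT was also not called with no filter (0.068, edgeR adjusted p = 0.0665). The Crem slope in KO, not called with TMM alone, was called and positive with the length trend removed (0.137, edgeR adjusted p = 0.000837).

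**Figure D5:**
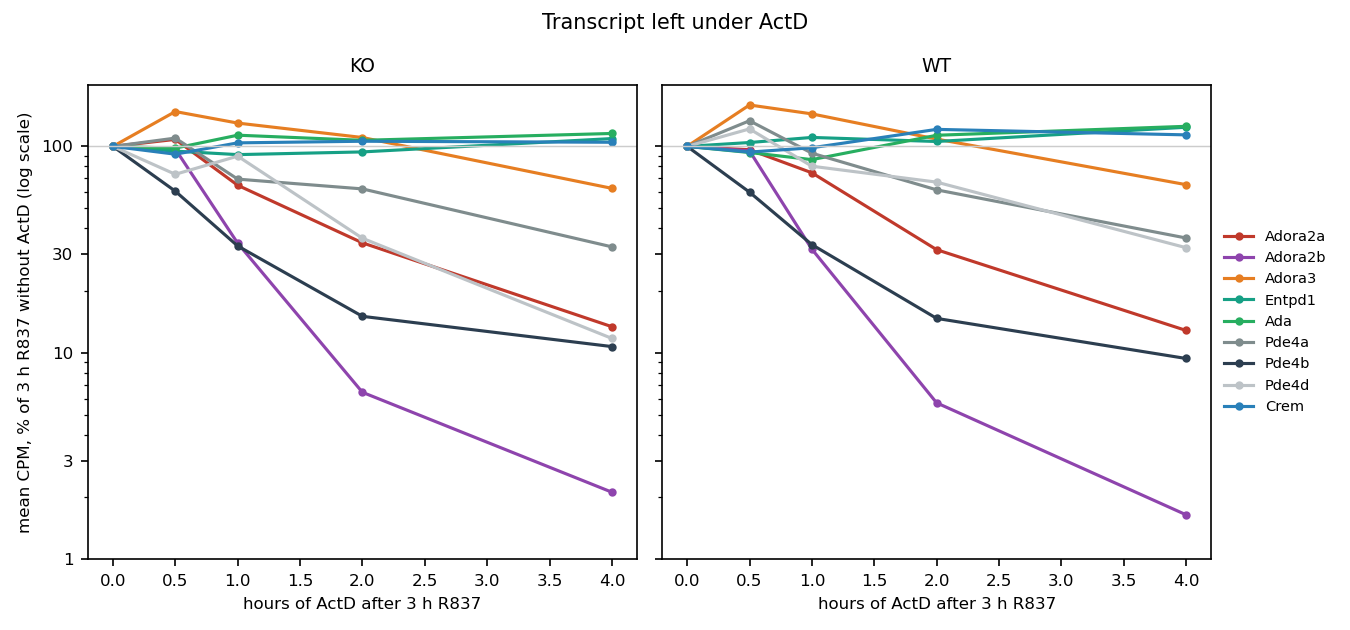
Mean CPM as a percentage of the level after 3 h of R837 without ActD (vertical axis, log scale) against hours of ActD (horizontal axis), in KO on the left and WT on the right, one line per gene with each point a mean of 3 libraries. In both panels Adora2b falls lowest (2.11% in KO and 1.64% in WT after 4 h), Adora3 lies above its 3 h level at 0.5 and 1 h, and Entpd1, Ada and Crem end above theirs.

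The slopes of the 2 genotypes were not called different for any of the 9 genes with edgeR, and for 0.0665% of all genes. At an unadjusted p under 0.05 none of the 9 slopes passed either. At single times of ActD the genotype difference in the change from 3 h was also called for none. Its 95% interval left out 0 at 1 h for Entpd1 (-0.279, -0.466 to -0.092) and Ada (0.398, 0.019 to 0.776). Entpd1 was close to the threshold there (edgeR adjusted p = 0.0527), and Ada was not (edgeR adjusted p = 0.172). At 4 h the interval did so for Adora2b (0.392, 0.045 to 0.738) and Pde4b (0.194, 0.013 to 0.376), with edgeR adjusted p = 0.526 and 0.567. For the other genes and times the interval held 0. Small differences in the fall at single times are thus not excluded. For Adora2a the difference in slope was 0.001 ± 0.05 log2 units per hour, with a 95% interval of -0.10 to 0.10. For Adora2b it was 0.16 ± 0.18 (95% interval -0.185 to 0.51) and for Pde4b 0.04 ± 0.10 (95% interval -0.16 to 0.235). The excess of Adora2a in KO was thus about as large after 4 h of ActD as before it.

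The last comparison set 7 h of R837 against 3 h of R837 with 4 h of ActD, which end at the same time. The groups differ in ActD, and also in the labelled time of R837, which is 3 h for the ActD groups. Whether the shorter R837 time plays a part was not tested. In KO 7 of the 9 were higher without ActD (38% of all genes) and 2 lower (36.1%). In WT 5 were higher (37.9%) and 3 lower (37.3%). Adora2b was 77.2-fold higher at 7 h without ActD in KO and 56.5-fold in WT, Adora2a 8.29-fold and 7.45-fold, Pde4b 9.73-fold and 6.58-fold, Adora3 4.06-fold and 2.59-fold, and Pde4a 2.11-fold and 2.05-fold.

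Entpd1 and Ada were lower without ActD. Entpd1 had a mean of 17.2 CPM at 7 h and 78.7 CPM with 4 h of ActD in KO, and of 23.8 and 88.5 CPM in WT (log2 -2.19 ± 0.07 in KO and -1.89 ± 0.07 in WT). Ada had 3.29 and 7.91 CPM in KO, and 4.02 and 10.8 CPM in WT (-1.25 ± 0.15 and -1.42 ± 0.15). Crem was higher without ActD in KO (0.40 ± 0.11, edgeR adjusted p = 0.000938) and lower in WT (-0.86 ± 0.11, edgeR adjusted p = 4.18e-09). With the length trend removed the KO change was 0.05 (edgeR adjusted p = 0.7), and with stable-reference scaling the WT change was -0.13 (edgeR adjusted p = 0.236).

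The genotype difference in this comparison was called with a more positive change in KO for 4 of the 9 (6.71% of all genes) and with a more negative one for 1 (7.94%). It was 1.26 ± 0.15 for Crem (edgeR adjusted p = 6.15e-08), 0.65 ± 0.14 for Adora3 (edgeR adjusted p = 0.000774), 0.565 ± 0.09 for Pde4b (edgeR adjusted p = 2.29e-05) and -0.295 ± 0.10 for Entpd1 (edgeR adjusted p = 0.0444). For Pde4d, with 1 or 2 counts in a KO library after 4 h of ActD, it was 3.34 with a 95% interval of 1.48 to 5.21 (edgeR adjusted p = 0.0133). With stable-reference scaling the Adora3 (0.36, edgeR adjusted p = 0.126) and Pde4b (0.28, edgeR adjusted p = 0.142) differences were not called. For Adora2b it was 0.45 ± 0.18 and not called (edgeR adjusted p = 0.0887), but called without replicate 1 of KO with ActD (0.60, edgeR adjusted p = 0.0389). The Pde4d difference was not called without replicate 1 of WT with ActD (2.89, edgeR adjusted p = 0.0943), and the Entpd1 difference without any one of 7 libraries (-0.31 to -0.24). The Entpd1 call was also lost with the length trend removed (-0.236, edgeR adjusted p = 0.0565), with no filter (-0.342, edgeR adjusted p = 0.0549) and in a fit of the compared groups alone (-0.29, edgeR adjusted p = 0.0671).

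Other genes of the pathway were described by lists, with the 3 most abundant genes of each named. The counts of KO against WT below stand beside 15.2% of all genes called higher and 12.6% lower at 3 h, and 15.5% higher and 15.1% lower at 7 h. Of 16 genes of nucleotide and adenosine handling tested, 4 were higher and 2 lower in KO at 3 h, and 5 higher and 6 lower at 7 h, with medians of 0.06 and -0.12. Cd38, an ectoenzyme that consumes NAD, was higher in KO at both times (0.95 ± 0.07 and 0.96 ± 0.07), as was the AMP deaminase gene Ampd3 (0.57 ± 0.09 and 0.63 ± 0.09). The nucleoside transporter gene Slc28a2 was higher at 3 h (0.215 ± 0.07) and lower at 7 h (-0.23 ± 0.06). Of 13 purinergic and Gs-coupled receptors, 5 were higher and 2 lower at 3 h, and 4 higher and 6 lower at 7 h. P2ry2, encoding a receptor for ATP and UTP, was higher at both times (0.56 ± 0.08 and 0.76 ± 0.08). The ATP-gated channel gene P2rx4 was lower at 7 h (-0.15 ± 0.06) with no called change at 3 h (0.00 ± 0.06), and the UDP receptor gene P2ry6 was lower at 7 h (-0.40 ± 0.10).

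Of 8 G protein and adenylyl cyclase genes, none was called by edgeR at 3 h in either direction, and 1 was higher and 2 lower at 7 h. The G protein genes Gnas, Gnai2 and Gnai3 were not called at either time. Of 9 other phosphodiesterases, 1 was higher and none lower at 3 h, and 2 higher and none lower at 7 h. Pde3b was higher at 3 h (0.50 ± 0.14) and Pde8a at 7 h (0.40 ± 0.11), whereas Pde7a was at -0.14 ± 0.12 and 0.18 ± 0.13, not called. Of 15 genes of protein kinase A, its anchors and Epac, 1 was higher and 1 lower at 3 h, and 4 higher and 5 lower at 7 h. The regulatory subunit gene Prkar1a was higher at 7 h (0.16 ± 0.05), the anchoring protein gene Akap13 at 3 h (0.28 ± 0.09), and the catalytic subunit gene Prkacb was not called.

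Of 10 genes of CREB and its coactivators, 5 were higher and none lower at 3 h, and 3 higher and none lower at 7 h. The coactivator gene Crtc2 was higher at both times (0.55 ± 0.08 and 0.38 ± 0.08), as was the kinase gene Sik3 (0.26 ± 0.10 and 0.26 ± 0.09), and Creb1 was higher at 7 h (0.235 ± 0.07). Of 16 genes listed as CREB targets, 6 were higher and 2 lower at 3 h, and 13 higher and none lower at 7 h, where 15.2% and 12.6% of all genes were called at 3 h and 15.5% and 15.1% at 7 h. The median of that list was 0.99 at 7 h, against -0.01 for all genes tested. Ptgs2, encoding cyclooxygenase 2, was at 0.73 ± 0.09 at 3 h and 2.34 ± 0.10 at 7 h, Junb, an AP-1 subunit gene, at 0.43 ± 0.09 and 0.89 ± 0.09, and the phosphatase gene Dusp1 was higher at 7 h (0.66 ± 0.08). Many genes of this list also respond to other signals, NF-kB among them. The list was chosen with earlier results of these data known, so its counts are a description.

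Among 8210 genes with a mean of at least 5 CPM, those whose 12 group means were most like the course of a receptor or enzyme were found by Pearson correlation of log2 CPM. Nearest to Adora2a were Trmt112 (0.967), Rab11fip1 (0.967) and Zbtb18 (0.966). Nearest to Adora2b were Gcc1, Rnf19a (0.995 each) and Ccnt1 (0.994), and nearest to Pde4b were Cep85l (0.993), Tnfaip3 and Tiparp (0.991 each). Crem had no gene as near, with Cpne3 (0.832), Elmod2 (0.831) and Lnpk (0.826) at the top. Within the 9, Entpd1 and Ada were at 0.946.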

How the data were processed

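RNA was sequenced from macrophages of 12 groups of 3 libraries. Alignment used GSNAP and the GRCm38 genome, per the submitters' processing notes; how reads were assigned to genes, with which annotation release and strand setting, is not given in the labels or notes. For each gene, the deposited files give a whole-number count over exons, an RPKM and the gene width, all computed by the authors. Summed counts were 90.86 to 91.76% of the total that the authors' RPKM values imply. Gene names came from GENCODE M21, which held 52403 of 52636 identifiers.

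Counts were normalized by TMM and filtered by filterByExpr. Tests were edgeR (4.0.16, R 4.3.3) quasi-likelihood F tests with Benjamini-Hochberg adjustment at 0.05: 1 model of the 12 groups (36 libraries, 13748 genes, biological coefficient of variation 7.5%) and 1 of hours of ActD (30 libraries, 13537 genes, 12.7%), whose residual also holds the misfit of the line. The scripts were checked on simulated counts. Each edgeR SE was derived from the test, as the absolute log2 change divided by the square root of F. Intervals are 95%, from 1.96 SE.

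Replicates have no number in the labels and were numbered by record order. Whether 1 mouse gave libraries in several conditions is not stated, and all libraries were treated as independent. If mice were shared, p-values could be too small for KO against WT. For changes within a genotype, and for genotype differences in them, they could be too large. No 2 libraries of a group agreed within sampling noise.

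The members, lists and tests were chosen with earlier results of these data known. Named genes were the 9 members, N4bp1, the 3 most abundant tested genes of each list and the 3 most alike to Adora2a, Adora2b, Pde4b and Crem. Stable-reference scaling used 68 ribosomal protein and elongation factor genes. DESeq2 (1.42.0) was an alternative. Promoter sequences are from RefSeq (GRCm38.p6).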

Additional observations from a re-analysis of the deposited data

Results flagged for a closer look

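The genotype differences below are those in which the change between 2 conditions differed between KO and WT by the edgeR interaction test (adjusted p under 0.05). For 7 h minus 3 h of R837, the KO change exceeded the WT change by 0.84 for Adora2b, 0.59 for Adora3, 0.76 for Pde4b, 1.89 for Pde4d and 1.15 for Crem on the log2 scale, and Entpd1 differed by -0.48. The Pde4d value rests on 4 to 30 counts in a library and was not called without replicate 3 of WT at 7 h (1.77, edgeR adjusted p = 0.0605), replicate 2 of KO at 3 h (1.80, edgeR adjusted p = 0.0501) or replicate 2 of WT at 3 h (1.69, edgeR adjusted p = 0.0774), or with no filter on low counts (1.88, edgeR adjusted p = 0.0817).

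For 7 h without ActD against 3 h plus 4 h of ActD, the KO change exceeded the WT change by 0.65 for Adora3, 0.565 for Pde4b, 3.34 for Pde4d and 1.26 for Crem, and Entpd1 differed by -0.295. Both comparisons share the libraries of 7 h of R837, so they are not independent.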

How the results depend on the processing

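The alternatives were 14 settings, some of them for slopes only, and leaving out each of the 36 libraries in the comparisons that used it. Of 90 called changes of the 9 genes over the 15 comparisons, 56 stayed called in the same direction under every alternative run on them. Under some alternative, 11 turned. Pde4d did not pass the stricter filter, a CPM of 1 in 3 libraries, so that setting did not test it. Of 45 changes not called, 33 were called in their own direction under none. Among these, the KO slope of Ada was called in the opposite direction with stable-reference scaling (-0.079, edgeR adjusted p = 0.0197).

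Stable-reference scaling took the median of all genes to 0.69 for 7 h against ActD in WT, to 0.21 for KO minus WT at 3 h and to 0.29 at 4 h of ActD. It left 3 genotype differences called between 7 h and 4 h of ActD, as did an adjusted p under 0.01. It turned Entpd1 in KO minus WT at 4 h of ActD to 0.107, the KO slopes of Entpd1, Ada and Crem to -0.091, -0.079 and -0.10, and the WT slopes to -0.103, -0.069 and -0.104.

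Slopes depended on the times used. Over 0 to 1 h, 3 were called in KO (all genes: 1874 higher and 2091 lower of 13407) and 3 in WT (809 and 1240), and over 0 to 2 h 5 in WT (2815 and 3562 of 13496). Contrasts at single times, chosen after seeing the data, called 2 in each at 0.5 h (all genes: 7.43% in KO, 7.22% in WT), and in WT 4 at 1 h (22%) and 5 at 2 h (49.8%). Signs turned in KO over 0 to 2 h for Entpd1 (-0.047), and over 0 to 1 h for Adora3 (0.38) and Entpd1 (-0.12). In WT over 0 to 1 h they turned for Adora3 (0.52), Ada (-0.209) and Crem (-0.02). At 0.5 h they turned in KO for Adora2a (0.112), Adora3 (0.563), Entpd1 (-0.078) and Pde4a (0.12), and in WT for Adora3 (0.663), Ada (-0.096), Pde4a (0.394), Pde4d (0.325) and Crem (-0.091). At 1 h they turned in KO for Adora3 (0.375) and Entpd1 (-0.134), and in WT for Adora3 (0.526), Ada (-0.212) and Crem (-0.023). At 2 h they turned in KO for Adora3 (0.14) and Entpd1 (-0.09), and in WT for Adora3 (0.118). The shorter spans use fewer libraries.

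No paired analysis was possible because the labels carry no replicate numbers. DESeq2 gave no adjusted p for some Pde4d changes, which are left out. Depth limits Pde4d, with at most 30 counts in a library.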
